A study of Mus musculus with 30 samples.

Results

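The genes described here are 35 members of the secretory pathway whose products bring proteins into the endoplasmic reticulum (ER), fold them, remove misfolded ones or load them for export, in the colon of mice that lacked Xbp1, Casp8 or both. They were taken as a list of named genes for their place downstream of the unfolded protein response, and 11 act in translocation and signal peptide processing, 16 in folding, 5 in ER-associated degradation and 3 in export to the Golgi. All 35 passed the filter on low counts, as did 15458 of the 55487 gene identifiers in the table. Expression was measured by 3′ tag sequencing of total RNA from 30 mice of 6 genotypes, 5 mice each, with 1 library per mouse.

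The TNFR1 triple knockout carried the alleles XBP1IEC-KO, Casp8IEC-KO and TNFR1IEC-KO. The MLKL triple knockout carried XBP1IEC-KO, Casp8IEC-KO and MLKLKO. The double knockout carried XBP1IEC-KO and Casp8IEC-KO, and the Xbp1 and Casp8 knockouts carried 1 of these each. WT mice carried none. IEC is the usual short form for the intestinal epithelial cell and stands in every allele name but that of Mlkl, for which the labels name no cell type. Both triple knockouts therefore share the Xbp1 and Casp8 deletions with the double knockout, and the labels name no deletion of these genes in other cells of the colon wall. The labels give no strain, age, Cre driver or deleted exon.

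XBP1 is a transcription factor made when the ER sensor IRE1 splices its mRNA, and with ATF6 it raises the genes for ER chaperones, the translocon and degradation when unfolded proteins gather in the ER. Caspase-8 starts apoptosis and holds back necroptosis, in which MLKL breaks the plasma membrane, and TNFR1 passes the signal of the cytokine TNF to both death pathways. In the gut these genes serve above all the cells that secrete most, the mucus-filled goblet cells of the epithelium and the antibody-secreting plasma cells beneath it.

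Promoters were read for the sites through which ATF6 and XBP1 are known to act, because the listed genes were chosen as targets of this response. RefSeq promoters on GRCm38.p6 (250 bases before to 50 bases after a start site) were given for 26 of the 35 genes, in 28 sequences. Both strands were searched for the ER stress response element (CCAAT and CCACG with 9 bases of any kind between them), the ER stress response element II (ATTGG and CCACG with 1 base between them) and the unfolded protein response element TGACGTGG. The first of these was held by 39 of all 32851 promoters (0.119%) and by the promoters of 7 of the 26 genes (26.9%), Calr, Canx, Creld2, Dnajc3, Hsp90b1, Hspa5 and Pdia6. The second was held by 12 of all promoters (0.0365%) and by 2 of the 26 genes, Dnajb11 and Herpud1. The third was held by 222 of all promoters (0.676%) and by 1 of the 26, Sec24d. The CCACG end of the first pair of elements is also found in the reverse complement of TGACGTGG, but no match overlapped another in these genes. A match describes the letters and is no evidence of binding. Manf, Lman1, Spcs3, Ostc, Sec61a1, Sec11c, Derl1, Hyou1 and Ssr2 were not searched.
The sequences below run 5′ to 3′ in the direction of the gene, with the matches in capitals. The 250 bases before the start site are given for Hspa5 and Hsp90b1, which encode the main chaperones, for Calr, and for Herpud1, which had the lowest adjusted p of the list in double knockouts.
Hspa5, chr2:34771840-34772089, plus strand: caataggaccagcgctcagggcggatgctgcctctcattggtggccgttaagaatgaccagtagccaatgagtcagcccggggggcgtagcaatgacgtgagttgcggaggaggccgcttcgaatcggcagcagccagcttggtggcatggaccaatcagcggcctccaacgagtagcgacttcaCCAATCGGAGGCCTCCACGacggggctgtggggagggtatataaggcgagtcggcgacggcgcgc
Hsp90b1, chr10:86705445-86705694, minus strand: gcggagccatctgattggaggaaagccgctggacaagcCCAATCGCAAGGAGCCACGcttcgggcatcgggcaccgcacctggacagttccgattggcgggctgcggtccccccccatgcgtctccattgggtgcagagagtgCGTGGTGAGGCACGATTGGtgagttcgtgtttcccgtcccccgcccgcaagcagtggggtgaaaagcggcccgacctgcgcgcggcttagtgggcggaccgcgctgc
Calr, chr8:84846932-84847181, minus strand: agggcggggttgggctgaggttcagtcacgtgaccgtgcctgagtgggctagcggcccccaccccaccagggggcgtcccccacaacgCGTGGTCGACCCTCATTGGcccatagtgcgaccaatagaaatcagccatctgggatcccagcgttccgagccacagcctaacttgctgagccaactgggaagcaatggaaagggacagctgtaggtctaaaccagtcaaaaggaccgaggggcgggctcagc
Herpud1, chr8:94386179-94386428, plus strand: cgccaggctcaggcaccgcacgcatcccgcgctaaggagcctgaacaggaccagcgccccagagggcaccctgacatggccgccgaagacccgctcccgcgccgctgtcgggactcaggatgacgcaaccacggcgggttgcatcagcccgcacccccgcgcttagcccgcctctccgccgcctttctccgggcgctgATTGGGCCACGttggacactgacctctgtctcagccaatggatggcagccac
For the others the match is shown with the bases around it, so that the spacing can be compared.
Canx, chr11:50325780-50325838, minus strand: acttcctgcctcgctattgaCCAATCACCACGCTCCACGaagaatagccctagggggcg
Creld2, chr15:88819500-88819558, plus strand: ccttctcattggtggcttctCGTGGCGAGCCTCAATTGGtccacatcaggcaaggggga
Dnajc3, chr14:118937807-118937865, plus strand: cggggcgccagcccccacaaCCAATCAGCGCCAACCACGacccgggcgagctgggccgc
Pdia6, chr12:17266471-17266529, plus strand: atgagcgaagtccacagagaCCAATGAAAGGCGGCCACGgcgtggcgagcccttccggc
Sec24d, chr3:123267450-123267495, plus strand: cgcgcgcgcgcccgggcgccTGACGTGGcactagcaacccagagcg
Dnajb11, chr16:22857843-22857871, plus strand: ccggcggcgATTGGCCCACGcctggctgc
Hsp90b1 held 2 matches and the other genes 1. Counted from 0 at the first transcribed base, the element of Hspa5 lay from −65 to −47, that of Herpud1 from −52 to −42 and that of Dnajb11 from 7 to 17. Calr and Creld2 held their match on the other strand than the gene, Hsp90b1 held it once on each, and the other 7 genes held theirs on the strand of the gene.

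Libraries held 3516792.6 to 5823059.7 reads. Levels are CPM, the share of a gene in the reads of its library after TMM normalization, where 1 read made up about 0.232 CPM, and 3′ tags need no correction for gene length. Epithelial markers summed to 4887 to 7647 CPM over all libraries, so that epithelium was present in each. Tags of Casp8 stood at 16.5 to 33.6 CPM in TNFR1 triple knockouts, 12.2 to 29.6 in MLKL triple knockouts, 22 to 46.3 in double knockouts and 24.7 to 34.8 in Casp8 knockouts, against 51.5 to 58.7 in WT. Xbp1 knockout mice, whose label names no Casp8 deletion, held 50.9, 21.1, 61.7, 45 and 66.7 CPM of Casp8. Double knockout replicates 4 and 5 held 46.3 and 43.3 CPM of it, above every Casp8 knockout mouse and below every WT mouse. Replicate 4 was also above Xbp1 knockout replicate 4. Tags of Tnfrsf1a stood at 52.4 to 75.4 CPM in TNFR1 triple knockouts, against 74.5 to 113 in double knockouts and 65 to 78.9 in WT. Tags of Xbp1 stood at 51.1 to 65.1 CPM in Xbp1 knockouts and 70.4 to 139.5 in double knockouts, against 52.8 to 100.1 in WT. They stood at 52.2 to 109 CPM in TNFR1 triple, 62.6 to 88.1 in MLKL triple and 76.2 to 149 in Casp8 knockouts. Double knockouts were higher than Xbp1 knockouts (log2 fold change 0.91, adjusted p = 0.00558). Where these tags lie relative to the deleted exons is not known, so they check nothing. Calls that ended or were gained without 3 libraries that stood apart are given with and without them. The library labelled Xbp1 knockout replicate 2 held Casp8 at 21.1 CPM, below every WT mouse, which goes against its label. The library labelled MLKL triple knockout replicate 5 held Mlkl at 10.7 CPM, against 1.3, 2.76, 4.38 and 3.59 in replicates 1 to 4. WT held 5.72 to 9.88 CPM of Mlkl and double knockouts 11.8 to 29.2, so these tags do not settle whether its label holds. The library labelled TNFR1 triple knockout replicate 1 held Tnfrsf1a at 75.4 CPM, within the ranges of WT and the double knockout, where the other 4 held 52.4 to 61.5 CPM. Tags of Tnfrsf1a stood at 53.7 to 87.9 CPM in MLKL triple, 55.6 to 71.9 in Xbp1 and 56.3 to 76.6 in Casp8 knockouts. The labels of these groups name no TNFR1 deletion, and their ranges overlap that of the other 4. The tags therefore do not settle whether the label of that library holds. Results are given without TNFR1 triple knockout replicate 1 where it moved a call. Double knockout replicate 1 had the lowest share of mitochondrial reads, 10.3% in a range that reached 22.9%. By Xist and the Y-linked genes 17 mice were female, namely 4 of the TNFR1 triple knockout, all 5 of the MLKL triple knockout, 1 of the double knockout, 3 of the Xbp1 knockout, 3 of the Casp8 knockout and 1 of WT.

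Over the 35 genes the double knockout had the highest group mean for 14 and the lowest for 0, and the Casp8 knockout had the highest for 12 and the lowest for 4. WT had the highest mean for 1 gene and the lowest for 16. The TNFR1 triple knockout had the highest for 2 and the lowest for 5, the MLKL triple knockout for 5 and 3, and the Xbp1 knockout for 1 and 7. Such counts were not made over all genes, so they describe the list and show no trait particular to it. Mice of a group differed least in WT, where the median coefficient of variation of a gene was 9.76%. It was 16.7% in TNFR1 triple knockouts, 13.4% in MLKL triple knockouts, 16.6% in double knockouts, 11.3% in Xbp1 knockouts and 14.7% in Casp8 knockouts.

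**Figure D1:**
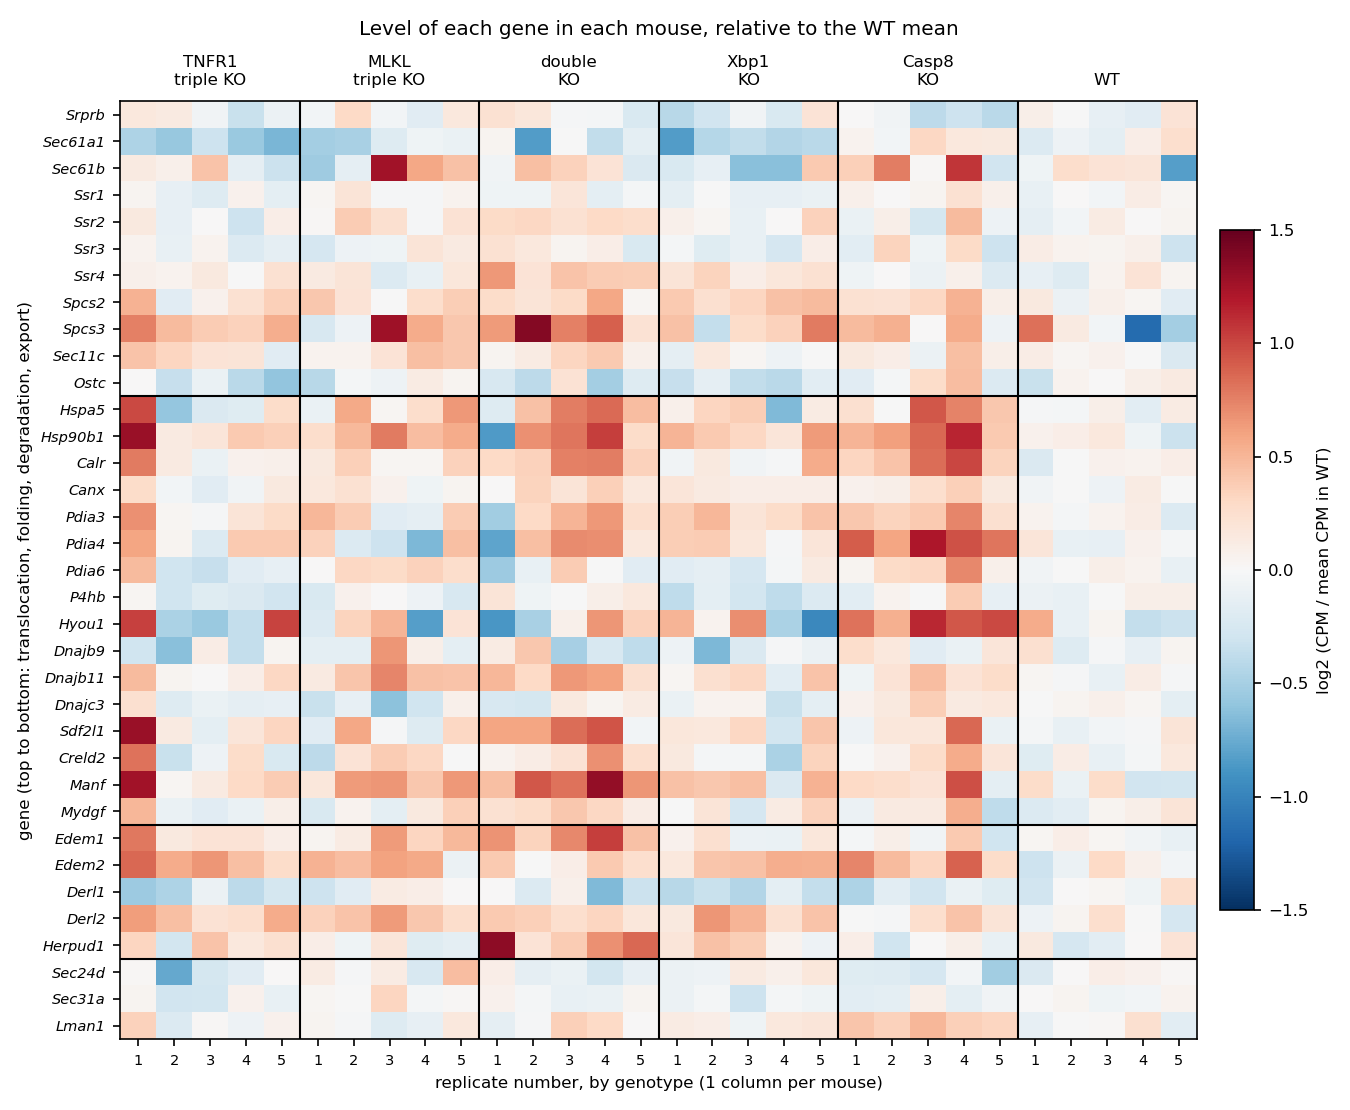
Level of each of the 35 genes (rows, by role) in each of the 30 mice (columns, by genotype and replicate number), as log2 of CPM over the mean CPM in WT. Red is above and blue below the WT mean. Chaperones and isomerases are red in the library labelled TNFR1 triple knockout replicate 1, in double knockout replicates 3 and 4 and in most Casp8 knockout mice, and Herpud1 and Edem1 are red across the double knockout.

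The double knockout had 8 of the 35 genes higher than WT and 0 lower (22.9%), where 21.3% of all genes tested were called in either direction, 11.1% higher and 10.2% lower. The share called was thus near that of all genes, and every call lay in the higher direction. The median log2 fold change was 0.23 over the 35 genes and 0.01 over all genes tested. The 8 were Ssr4 and Spcs3 of translocation, Calr, Dnajb11, Sdf2l1 and Manf of folding, and Edem1 and Herpud1 of degradation. Levels did not overlap between double knockout and WT mice for Ssr2, Calr, Dnajb11, Manf and Edem1, all higher, where 13.2% of all genes did not overlap, 6.55% of all genes with the double knockout higher. Leaving out double knockout replicate 4 gave 5 calls, where 16.5% of all genes were called. Leaving out double knockout replicate 1 gave 12, all higher, where 19.6% of all genes were called. Leaving out all 3 libraries that stood apart also gave 12, all higher, where 19.8% were called. The 12 without replicate 1 added Hspa5, Hsp90b1, Canx, Pdia3 and Pdia4 and lost Sdf2l1. In bulk RNA, more cells of a type and more RNA of a gene per cell cannot be told apart.

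The degradation genes Herpud1 and Edem1 had the lowest adjusted p of the list. Herpud1 (ENSMUSG00000031770, chromosome 8, 94386438 to 94395377, GRCm38 as for all positions) encodes an ER membrane protein that helps assemble the ubiquitin ligase complex of ER-associated degradation. Its level was 321, 146, 166, 205 and 231 CPM in double knockout mice 1 to 5, against 141, 107, 114, 127 and 146 in WT mice 1 to 5. Of the 5 double knockout mice 4 were above every WT mouse, replicate 1 by the most, and replicate 2 was level with the highest WT mouse. The gene rose by a log2 fold change of 0.75 ± 0.15 (SE; adjusted p = 0.000801), to 214 ± 68.6 CPM in double knockouts, against 127 ± 16.8 in WT (SD, n = 5 each). The other groups held 159, 105, 170.4, 142 and 150.5 CPM in TNFR1 triple knockouts, 136, 121, 144, 112 and 115 in MLKL triple knockouts, 144, 172, 164, 132 and 120.2 in Xbp1 knockouts and 136, 103, 128, 135 and 118 in Casp8 knockouts. No mouse of the MLKL triple or Casp8 knockout reached the lowest double knockout mouse. Without double knockout replicate 1 the log2 fold change was 0.55, and the call held in all 10 fits that left out 1 library.

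Edem1 (ENSMUSG00000030104, chromosome 6, 108828641 to 108859356) encodes a lectin that hands misfolded glycoproteins to degradation. It stood at 67.8, 53.4, 69.7, 87.3 and 57.6 CPM in double knockouts, against 43.1, 45.3, 43.2, 41 and 39.3 in WT. Every double knockout mouse was above every WT mouse. The rise was 0.66 ± 0.14 on the log2 scale (SE; adjusted p = 0.00112), with means of 67.2 ± 13.2 CPM in double knockouts and 42.4 ± 2.3 in WT. TNFR1 triple knockout mice held 73.2, 46.9, 48.8, 48.8 and 45.3, MLKL triple knockout mice 43.6, 46.1, 66.2, 53 and 59.5, Xbp1 knockout mice 44.3, 50.1, 39.8, 39.6 and 47.8 and Casp8 knockout mice 41.5, 45.1, 41, 55.7 and 34.5 CPM. In the range of the double knockout lay 1 TNFR1 triple, 2 MLKL triple, 0 Xbp1 and 1 Casp8 knockout mice, and the call against WT held in all 10 fits that left out 1 library.

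The remaining degradation genes did not pass in double knockouts. Derl2, part of the channel through which proteins leave the ER, had a log2 fold change of 0.30 ± 0.11 (adjusted p = 0.0566). Edem2, which trims mannose from glycoproteins bound for degradation, stood at 23.2, 17.6, 18.9, 23.3 and 21 CPM in double knockouts, against 14.3, 16.6, 21.8, 18.6 and 17.2 in WT (log2 fold change 0.23 ± 0.14, adjusted p = 0.256). Edem2 stood at 32.1, 26, 28, 24.2 and 21.5 CPM in TNFR1 triple knockouts, 25.4, 24.4, 26.8, 26.3 and 16.7 in MLKL triple knockouts, 19.7, 23.6, 24, 25.9 and 25.6 in Xbp1 knockouts and 29.4, 24.5, 22.1, 32.6 and 21.4 in Casp8 knockouts, and all these ranges overlap that of the double knockout. Derl1, a relative of Derl2, had −0.20 ± 0.12 (adjusted p = 0.26).

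**Figure D2:**
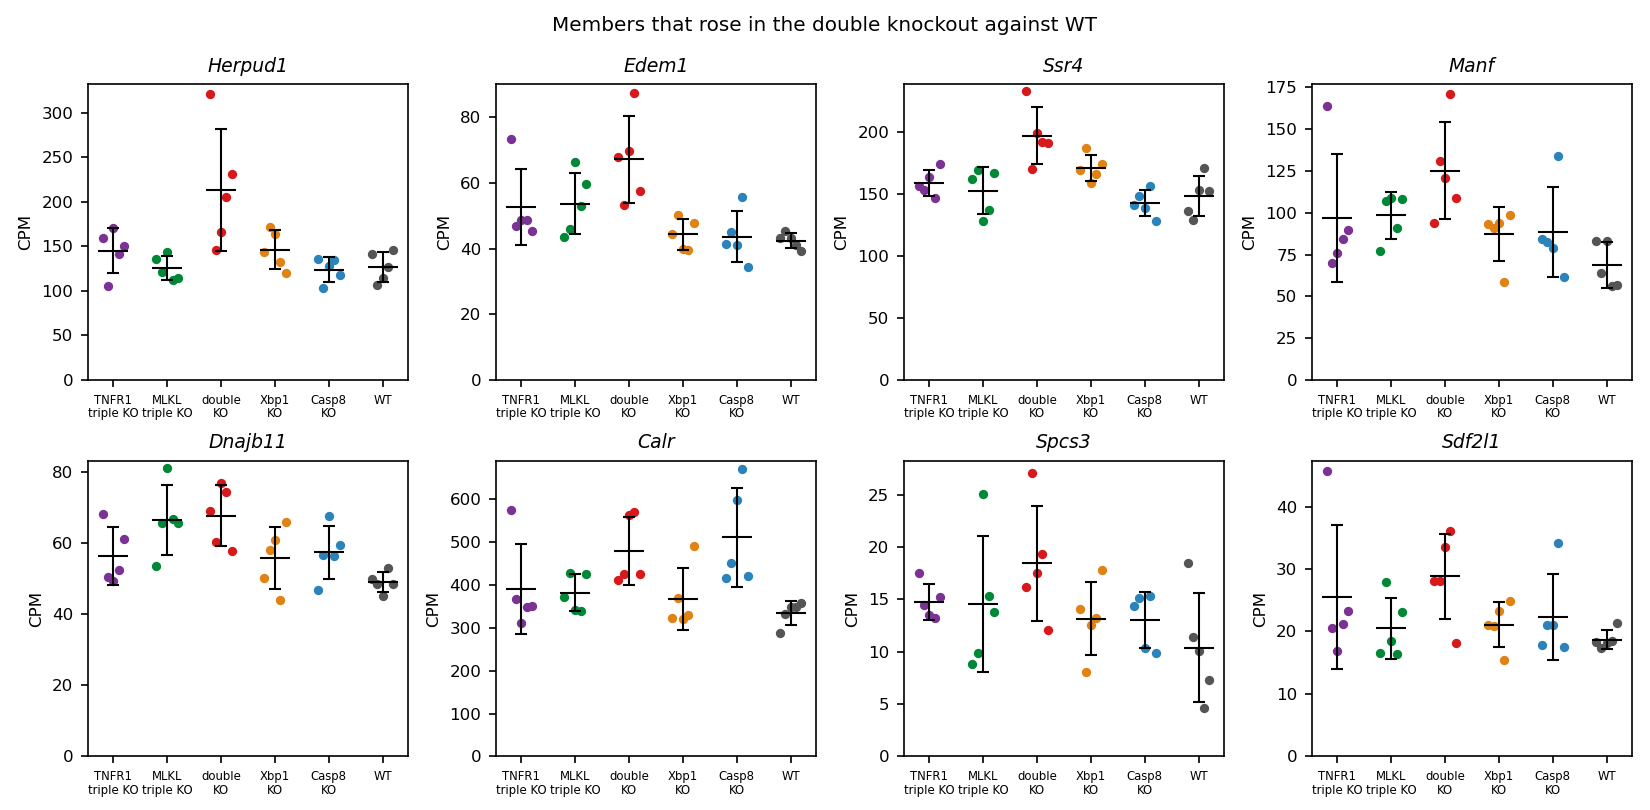
CPM per mouse (points) of the 8 genes that rose in double knockouts against WT, with mean and SD (bars) per genotype, 5 mice each. All 5 double knockout mice lie above all WT mice for Edem1, Manf, Dnajb11 and Calr, and the library labelled TNFR1 triple knockout replicate 1 is the highest of its group for 6 of the 8.

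Of the 16 folding genes 4 rose in double knockouts and 0 fell. Manf (ENSMUSG00000032575, chromosome 9, 106838312 to 106891979) encodes a secreted factor kept in the ER that binds the chaperone made by Hspa5. Its level was 93.8, 131, 121, 171 and 109 CPM in double knockouts, against 83.4, 64, 83.2, 56.4 and 56.7 in WT. Groups did not overlap, and the log2 fold change of 0.86 ± 0.21 (adjusted p = 0.00294) held in all 10 fits that left out 1 library. Elsewhere it stood at 164, 69.9, 75.7, 84.4 and 89.6 CPM in TNFR1 triple knockouts, 77.4, 107, 109, 90.7 and 108 in MLKL triple knockouts, 93.1, 91.1, 94, 58.9 and 99 in Xbp1 knockouts and 84.6, 82.8, 79.2, 134 and 61.9 in Casp8 knockouts. In the range of the double knockout lay 1 TNFR1 triple, 3 MLKL triple, 2 Xbp1 and 1 Casp8 knockout mice.

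Dnajb11 (ENSMUSG00000004460, chromosome 16, 22857845 to 22879634), a co-chaperone that delivers unfolded proteins to the Hspa5 product, stood at 69.2, 60.4, 77.1, 74.5 and 57.9 CPM in double knockouts, against 50, 48.6, 45.3, 53.1 and 48.6 in WT. Here too the groups did not overlap, with means of 67.8 ± 8.47 CPM in double knockouts and 49.1 ± 2.82 in WT. The rise of 0.47 ± 0.12 (adjusted p = 0.00592) held in all 10 such fits. Levels were 68.3, 50.4, 49.3, 52.6 and 61.1 CPM in TNFR1 triple knockouts, 53.7, 65.7, 81.3, 66.7 and 65.8 in MLKL triple knockouts, 50.2, 58.2, 60.9, 44 and 66.1 in Xbp1 knockouts and 46.9, 56.8, 67.8, 56.5 and 59.5 in Casp8 knockouts. MLKL triple knockout mice were also all above WT (0.44 ± 0.12), but the adjusted p of 0.0702 did not pass.

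Calr (ENSMUSG00000003814, chromosome 8, 84841850 to 84846934) encodes calreticulin, the lectin chaperone that binds calcium and newly made glycoproteins. It stood at 412, 426, 563, 569 and 425 CPM in double knockouts, against 288, 332, 348, 347 and 358 in WT. All double knockout mice were above WT, 2 of them well above the rest. The rise of 0.52 ± 0.15 (adjusted p = 0.0148) did not pass without double knockout replicate 4 (adjusted p = 0.0559) and passed in the other 9 fits that left out 1 library. The other groups held 575, 366, 311, 349 and 351 CPM in TNFR1 triple knockouts, 370.5, 428, 342, 339.6 and 424 in MLKL triple knockouts, 323, 369.6, 321, 330.2 and 491 in Xbp1 knockouts and 416, 449.8, 598, 669 and 420.3 in Casp8 knockouts. Sdf2l1, part of the Hspa5 chaperone complex, rose by 0.62 ± 0.22 (adjusted p = 0.0393) with 28.1, 28.1, 33.5, 36.1 and 18.2 CPM in double knockouts, against 18.3, 17.3, 18.2, 18.4 and 21.3 in WT. That call ended without any 1 of double knockout replicates 1 to 4 or WT replicates 1 to 4 (adjusted p 0.0565 to 0.115), and without the 3 libraries that stood apart (0.0622).

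Hspa5 (ENSMUSG00000026864, chromosome 2, 34771970 to 34777547) encodes the main ER chaperone, also known as BiP or GRP78, and was the most abundant of the 35 genes. It stood at 436, 676, 852, 902 and 687 CPM in double knockouts, against 491, 487, 529.9, 446 and 543 in WT. Replicate 1 of the double knockout was below every WT mouse and the other 4 were above all WT mice. The log2 fold change of 0.51 ± 0.23 did not pass with all libraries (adjusted p = 0.112) and was 0.64 without replicate 1 (adjusted p = 0.0487). TNFR1 triple knockout mice held 989, 333, 430.1, 439 and 605 CPM, MLKL triple knockout mice 466, 742, 509.9, 599 and 783, Xbp1 knockout mice 524, 626, 644, 315 and 543 and Casp8 knockout mice 590.1, 495, 949.9, 836 and 661. The highest mouse stood at 989 CPM in TNFR1 triple knockouts, 902 in double knockouts and 949.9 in Casp8 knockouts, against 543 in WT.

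Other chaperones and isomerases were also low in that library. In double knockout replicate 1 Hsp90b1, the ER form of the HSP90 chaperone, stood at 154 CPM against 334 to 569 in the other 4 double knockout mice, and at 221 to 309.7 in WT. Pdia3, the disulfide isomerase that works with calreticulin and calnexin, stood at 179 CPM in it, against 306 to 402 in the other 4. Pdia4, another disulfide isomerase, stood at 26.8 CPM in it, against 51.7 to 75.9. Herpud1 and Ssr4 went the other way in the same library, with 321 CPM against 146 to 231 and 233 CPM against 170.1 to 199. In all, 12 of the 35 genes lay below the range of the other 4 mice, 9 above and 14 within. Without this library Hsp90b1 (log2 fold change 0.72, adjusted p = 0.0063), Pdia3 (0.43, 0.025), Pdia4 (0.51, 0.0366) and Canx, the membrane-bound relative of calreticulin (0.26, 0.0317), passed against WT. With it, 0 of these 4 did, at adjusted p of 0.075 to 0.262.

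Values of every mouse follow for Hsp90b1 and Pdia3, whose levels did not overlap WT in several groups. Hsp90b1 held 682, 304, 314, 364 and 355 CPM in TNFR1 triple knockouts, 332, 387, 477, 382 and 409 in MLKL triple knockouts, 154, 444, 485, 569 and 334 in double knockouts, 395, 364, 343, 314 and 433 in Xbp1 knockouts and 394, 426, 505, 611 and 363 in Casp8 knockouts, against 290.1, 297, 309.7, 265 and 221 in WT. All mice of the MLKL triple, Xbp1 and Casp8 knockouts were above all WT mice. Pdia3 held 412, 262, 254, 295 and 313 CPM in TNFR1 triple knockouts, 362, 334, 228, 234 and 335 in MLKL triple knockouts, 179, 316, 367, 402 and 306 in double knockouts, 331, 362, 295, 311 and 345 in Xbp1 knockouts and 339, 325, 337, 426 and 303 in Casp8 knockouts, against 266, 252, 267, 277 and 223 in WT. For Pdia3 all mice of the Xbp1 and Casp8 knockouts were above all WT mice.

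The remaining folding genes did not pass in double knockouts against WT. Pdia6, a disulfide isomerase, had a log2 fold change of −0.05 ± 0.14 (adjusted p = 0.829), with 94.5 to 179.9 CPM in double knockouts and 128 to 147 in WT. Dnajc3, a co-chaperone that also restrains the kinase PERK, had −0.03 ± 0.11 (0.89) and Dnajb9, a co-chaperone that also restrains IRE1, −0.08 ± 0.17 (0.792). Hyou1, which recharges the Hspa5 product with nucleotide, had 0.02 ± 0.35 (0.975). Each of these 4 values was smaller than its SE. Creld2, an ER-resident isomerase, had 0.28 ± 0.18 (0.282) and Mydgf, a secreted growth factor, 0.27 ± 0.14 (0.187). Creld2 was a gene of low level in every group, with 12.2 to 27 CPM in TNFR1 triple knockouts, 11.7 to 20 in MLKL triple knockouts, 16 to 24.7 in double knockouts, 11.1 to 19.4 in Xbp1 knockouts and 15.3 to 22.6 in Casp8 knockouts, against 13.6 to 17.2 in WT.

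**Figure D3:**
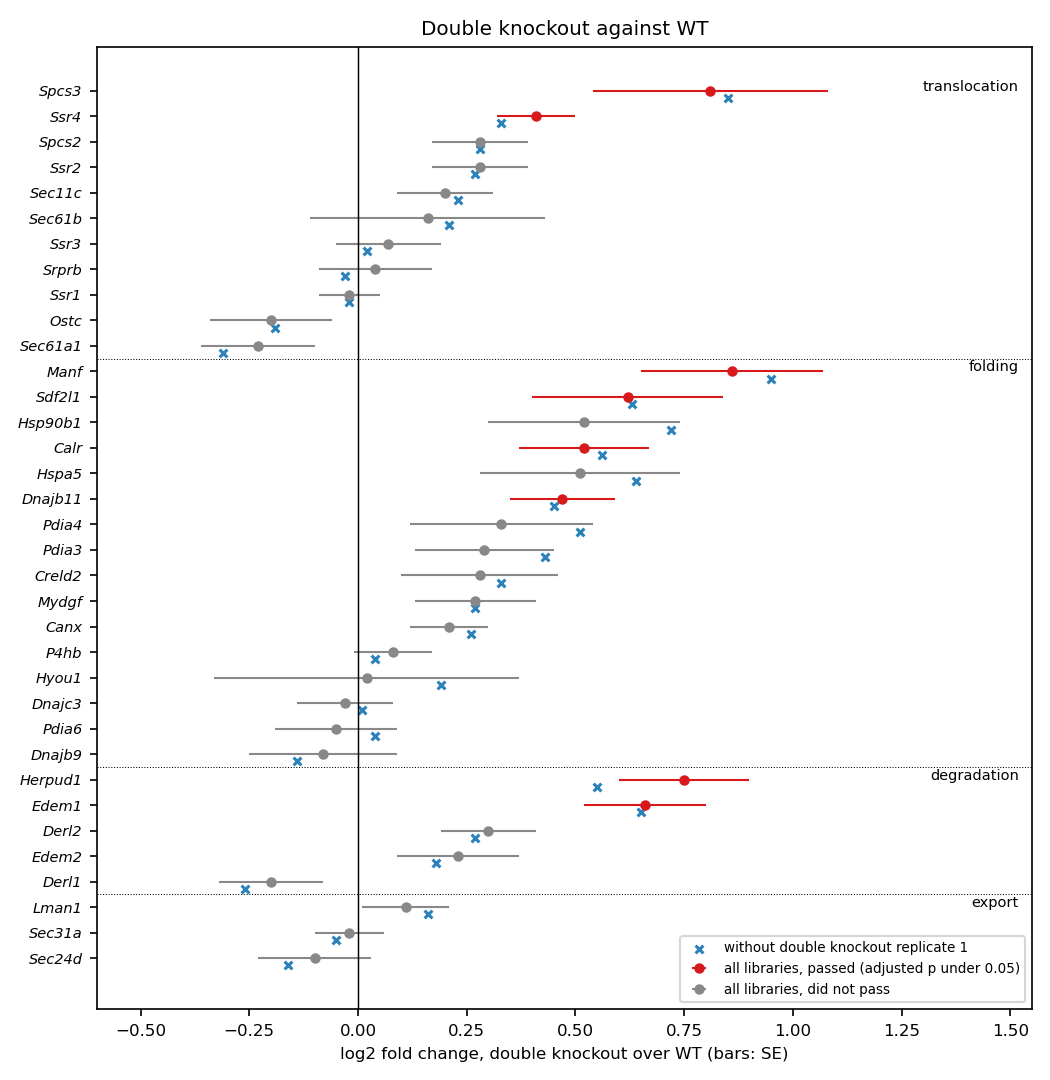
Log2 fold change of each gene in double knockouts over WT with its SE (bars), by role, for all libraries (circles, red where adjusted p is under 0.05) and without double knockout replicate 1 (crosses). Leaving that library out moved Hsp90b1 to 0.72 and Hspa5 to 0.64, and moved Herpud1 to 0.55.

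Of the 11 translocation genes 2 rose in double knockouts and 0 fell. Ssr4 (ENSMUSG00000002014, chromosome X, 73787028 to 73790830) encodes the delta subunit of the translocon-associated protein complex, which helps proteins through the ER membrane. It stood at 233, 170.1, 199, 192 and 191 CPM in double knockouts, against 136, 129, 153, 171 and 152 in WT. All but 1 double knockout mouse were above the highest WT mouse. The rise of 0.41 ± 0.09 (adjusted p = 0.00203) held in all 10 fits that left out 1 library and, the gene being on the X chromosome, in the fit with sex as a term (adjusted p = 0.00222). It held 156, 153, 164, 147 and 174 CPM in TNFR1 triple knockouts, 162, 169, 128, 137 and 167 in MLKL triple knockouts, 169, 187, 159, 166 and 174 in Xbp1 knockouts and 141, 148, 139, 156 and 128 in Casp8 knockouts. The other subunits of that complex did not pass, with log2 fold changes of −0.02 ± 0.07 for Ssr1, 0.28 ± 0.11 for Ssr2 and 0.07 ± 0.12 for Ssr3.

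Spcs3 (ENSMUSG00000054408, chromosome 8, 54520433 to 54529998), a subunit of the signal peptidase that cuts signal peptides off, stood at 16.2, 27.1, 17.5, 19.3 and 12.1 CPM in double knockouts, against 18.5, 11.4, 10.1, 4.66 and 7.28 in WT. Both groups were wide and overlapped. It rose by 0.81 ± 0.27 (adjusted p = 0.0319), and the call ended without double knockout replicate 2 (0.111) or 4 (0.0619) or WT replicate 3 (0.0572), 4 (0.103) or 5 (0.08). Other groups held 17.5, 14.5, 13.5, 13.2 and 15.2 CPM in TNFR1 triple knockouts, 8.83, 9.84, 25.1, 15.3 and 13.8 in MLKL triple knockouts, 14.1, 8.11, 12.6, 13.2 and 17.8 in Xbp1 knockouts and 14.4, 15.1, 10.4, 15.3 and 9.86 in Casp8 knockouts. Sec61a1, the pore through which these proteins enter the ER, had a log2 fold change of −0.23 ± 0.13 (adjusted p = 0.218).

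The other translocation genes did not pass in double knockouts against WT. Spcs2, a signal peptidase subunit, had 0.28 ± 0.11 (adjusted p = 0.0692), with 79.7 to 117 CPM in double knockouts and 69.2 to 86.1 in WT, and Sec11c, the subunit that cuts, had 0.20 ± 0.11 (0.208). Ssr2 stood at 82.9 to 88 CPM in double knockouts, above the 64.3 to 76.8 of WT in every mouse, at an adjusted p of 0.0722. Srprb, which anchors the receptor of the signal recognition particle, had 0.04 ± 0.13 (0.879), Sec61b, a small subunit of the channel, 0.16 ± 0.27 (0.713) and Ostc, a subunit of the enzyme that attaches glycans, −0.20 ± 0.14 (0.33). The spread was wide for Sec61b, at 20.7 to 32.7 CPM in double knockouts and 13.5 to 28.7 in WT.

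None of the 3 export genes passed by edgeR or by DESeq2 in double knockouts against WT, and 0 had an unadjusted p under 0.05. Lman1, a cargo receptor that carries glycoproteins out of the ER, stood at 73.9, 79.8, 104, 99.4 and 81.1 CPM in double knockouts, against 74.6, 80.6, 82.1, 95.3 and 72.6 in WT. Other mice held 103, 70.1, 82.3, 77 and 84.4 CPM in TNFR1 triple knockouts, 83.3, 80.1, 71.1, 74.1 and 90.5 in MLKL triple knockouts, 88.2, 86.9, 77.3, 90.2 and 91.9 in Xbp1 knockouts and 108, 103, 114, 104 and 101 in Casp8 knockouts. Every Casp8 knockout mouse was above every WT mouse, and the log2 fold change of 0.39 ± 0.10 just missed the threshold (adjusted p = 0.0521). Sec24d (ENSMUSG00000039234, chromosome 3, 123267455 to 123365641), which picks cargo for the COPII vesicles that leave the ER, stood at 26.8, 22.8, 23.5, 20.8 and 23 CPM in double knockouts, against 21.6, 25.1, 26.9, 26.3 and 25.5 in WT. Its groups overlapped throughout, with 25.5, 14.8, 20.9, 22.4 and 25.1 CPM in TNFR1 triple knockouts, 27.3, 24.8, 27.3, 21.3 and 34.5 in MLKL triple knockouts, 23.6, 23.9, 27.6, 26.4 and 28.3 in Xbp1 knockouts and 22.2, 21.9, 21.1, 24.4 and 17.5 in Casp8 knockouts. The log2 fold change in double knockouts was −0.10 ± 0.13 for Sec24d and −0.02 ± 0.08 for Sec31a, part of the outer COPII coat.

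Plasma cells use these genes heavily, and their markers moved with the same genotype. Of 12 markers 10 were higher in double knockouts than in WT, among them Jchain, Igha, Mzb1 and Prdm1, and Tnfrsf17 was at or near 0 in WT (0 to 1.04 CPM). The 12 summed to 2136 to 9843 CPM in TNFR1 triple knockouts, 1125 to 5243 in MLKL triple knockouts, 2795 to 15725 in double knockouts, 709 to 2568 in Xbp1 knockouts and 1601 to 6041 in Casp8 knockouts, against 451 to 1576 in WT. The highest TNFR1 triple knockout library was replicate 1, which was also highest for Hspa5, Manf and Edem1. Double knockout replicate 2 had the lowest sum of its group, 2795 CPM, where the other 4 had 10548 to 15725. In that mouse Edem1 (53.4 CPM), Manf (131), Dnajb11 (60.4) and Calr (426) were above every WT mouse, while Herpud1 (146) and Ssr4 (170.1) were not. Herpud1, Edem1, Ssr4, Manf, Dnajb11 and Calr passed against WT with that library left out and with it included. In both fits every double knockout mouse had a plasma cell sum above the 451 to 1576 CPM of WT. The part of plasma cells in the differences was not tested. Epithelial markers summed to 6189 to 7647 CPM in double knockouts, against 4996 to 6097 in WT, with 3 of 6 higher. Smooth muscle markers summed to 2753 to 4212 CPM in double knockouts, against 5521 to 7776 in WT, with 6 of 6 lower. Neutrophil markers summed to 238 to 773 CPM in double knockouts, against 137 to 268 in WT, with 3 of 3 tested higher. Csf3r, Cxcr2 and Mmp8 of that list did not pass the filter. In WT the sum was nearly all Ly6g, with S100a8 at 0 to 1.4 CPM and S100a9 at 0 to 2.8, so it is no measure of neutrophils there. Double knockouts held 4.6 to 152 CPM of S100a8, 8.97 to 139 of S100a9 and 221 to 498 of Ly6g. Goblet cell markers were divided, with 4 of 11 tested higher and 3 lower. Muc2 stood at 286 to 746 CPM in TNFR1 triple, 585 to 765 in MLKL triple, 391 to 868 in double and 431 to 587 in Xbp1 knockouts. It stood at 1468 to 1836 CPM in Casp8 knockouts and 1597 to 2389 in WT. Spink4 went the other way, at 335 to 536 CPM in double knockouts, against 138 to 231 in WT. The part of these shifts was not tested either.

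**Figure D4:**
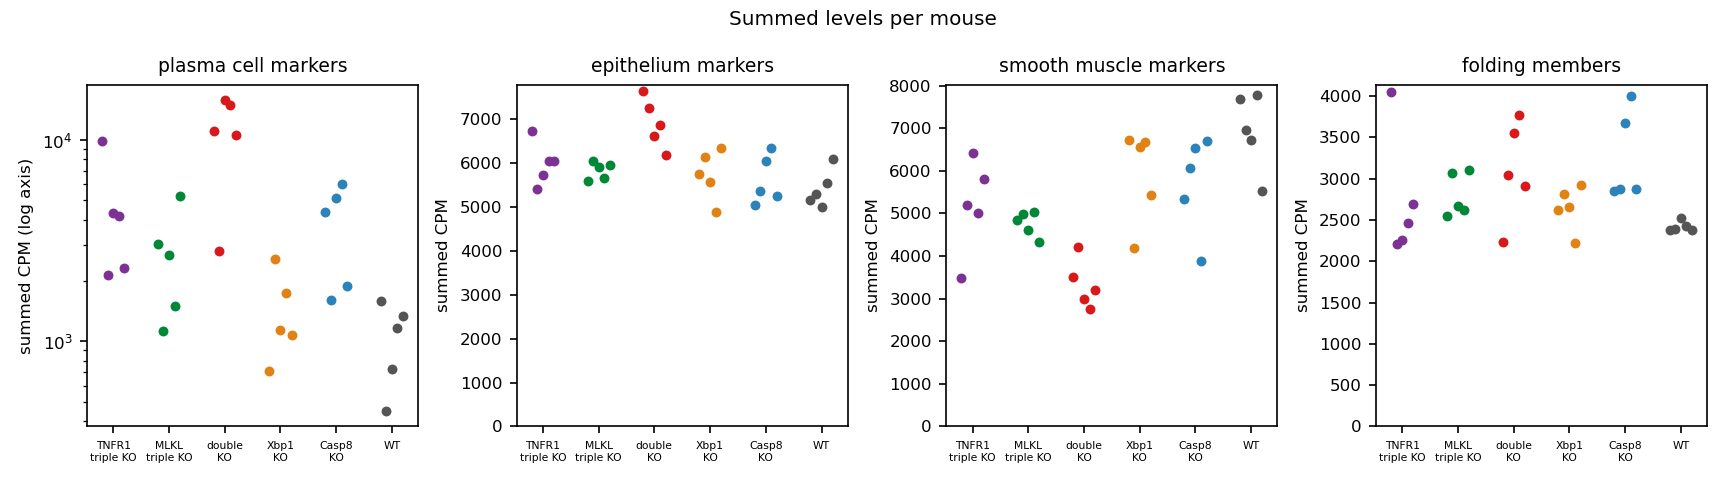
Summed CPM per mouse of plasma cell markers (log axis), epithelium markers, smooth muscle markers and the 16 folding genes, by genotype, 1 point per mouse. Double knockout mice are highest for plasma cell markers except replicate 2 (2795 CPM) and are below all WT mice for smooth muscle (2753 to 4212 CPM), and all Casp8 and all MLKL triple knockout mice are above all WT mice for the folding genes.

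In Xbp1 knockouts 0 of the 35 genes were called against WT by edgeR, where 0.0841% of all genes were called. An unadjusted p under 0.05 was found for 8 of the 35, where 13% of all genes had one. DESeq2 called 2 of the 35 (Sec61a1 lower and Derl2 higher), where it called 137 of the 9762 genes to which it gave an adjusted p (1.4%). The median log2 fold change was 0.08, and that over all genes tested was 0. Groups did not overlap for Spcs2, Hsp90b1 and Pdia3, which were higher, and for Sec61a1 and P4hb, which were lower, where 4.44% of all genes did not overlap, 2.05% higher and 2.39% lower. Sec61a1 (ENSMUSG00000030082, chromosome 6, 88503579 to 88518905) stood at 77, 103, 107, 102 and 104 CPM in Xbp1 knockouts, against 120.2, 131, 125, 148 and 165 in WT (log2 fold change −0.48 ± 0.13, adjusted p = 0.111). The fit of these groups alone called 3 genes, Sec61a1 (0.0365) with Spcs2 (0.036), the signal peptidase subunit, and Pdia3 (0.0424). That fit called 1.57% of all genes.

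In Casp8 knockouts Pdia4 and Calr were higher than in WT and 0 genes lower, 2 of 35 (5.71%), where 1.17% of all genes were called and 0.634% were higher. All 16 folding genes had a positive log2 fold change, from 0.04 to 0.91 with a median of 0.29 beside 0 over all genes tested, and 8 of them had an unadjusted p under 0.05, where 15.6% of all genes had one. Their summed level was 2848 to 3998 CPM in Casp8 knockouts, against 2376 to 2519 in WT, with no overlap. The sum was also above all WT mice in MLKL triple knockouts, at 2548 to 3102 CPM. Single genes that did not overlap were Hsp90b1, Calr, Pdia3, Pdia4 and Lman1, all higher, where 5.32% of all genes did not overlap and 2.79% were higher. Pdia4 (ENSMUSG00000025823, chromosome 6, 47796141 to 47813430) stood at 87.2, 70.1, 108, 89.8 and 80.8 CPM in Casp8 knockouts, against 52.6, 42.9, 42.8, 48.7 and 45.5 in WT. It rose by 0.91 ± 0.20 (adjusted p = 0.0202), and levels elsewhere were 70, 47.9, 40.4, 61.2 and 61.1 CPM in TNFR1 triple knockouts, 59.2, 40.3, 37.5, 29.2 and 63.8 in MLKL triple knockouts, 26.8, 63.4, 75.9, 75.7 and 51.7 in double knockouts and 59.9, 60.7, 52.2, 45.9 and 52.8 in Xbp1 knockouts. Every Casp8 knockout mouse was above every mouse of the TNFR1 triple, MLKL triple and Xbp1 knockouts and of WT, and double knockout replicates 3 and 4 reached its range. Calr rose by 0.61 ± 0.15 (adjusted p = 0.0416), and its range in Casp8 knockouts, 416 to 669 CPM, overlapped that in double knockouts, 412 to 569. Hyou1, one of the least abundant members, stood at 6.33, 5.21, 7.83, 6.87 and 7.12 CPM in Casp8 knockouts against 5.28, 3.32, 3.68, 2.8 and 2.86 in WT (log2 fold change 0.89 ± 0.34, adjusted p = 0.19).

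These calls were not firm. Pdia4 ended without Casp8 knockout replicate 3 (0.0691) or WT replicate 2 (0.0588) or 3 (0.0556), and Calr without Casp8 knockout replicate 3 (0.112) or 4 (0.143) or any 1 WT replicate (0.064 to 0.091). The count was 0 without Casp8 knockout replicate 3 or WT replicate 2, where 0.562% and 0.6% of all genes were called. It was 1, Pdia4, without Casp8 knockout replicate 4 or WT replicate 1 or 5, and 1, Edem2 (0.044), without WT replicate 3. There 0.625% to 0.882% of all genes were called. With all libraries Edem2 had a log2 fold change of 0.55 and did not pass (0.05). Edem2 also passed without Casp8 knockout replicate 5 (0.0391), and Lman1 without WT replicate 4 (0.0367). With sex as a term the count was 0 (Pdia4 0.0693, Calr 0.124), where 0.653% of all genes were called. It was 5 by DESeq2, where 2.3% of all genes were called, and 5 without the 3 libraries that stood apart, where 2.32% were. In both, Hsp90b1, Edem2 and Lman1 also passed. Of the 12 plasma cell markers 1 (Igha) passed, all 12 had a positive log2 fold change with a median of 1.51, and 9 had an unadjusted p under 0.05. Their sums, 1601 to 6041 CPM in Casp8 knockouts against 451 to 1576 in WT, did not overlap, and the part of plasma cells was not tested.

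**Figure D5:**
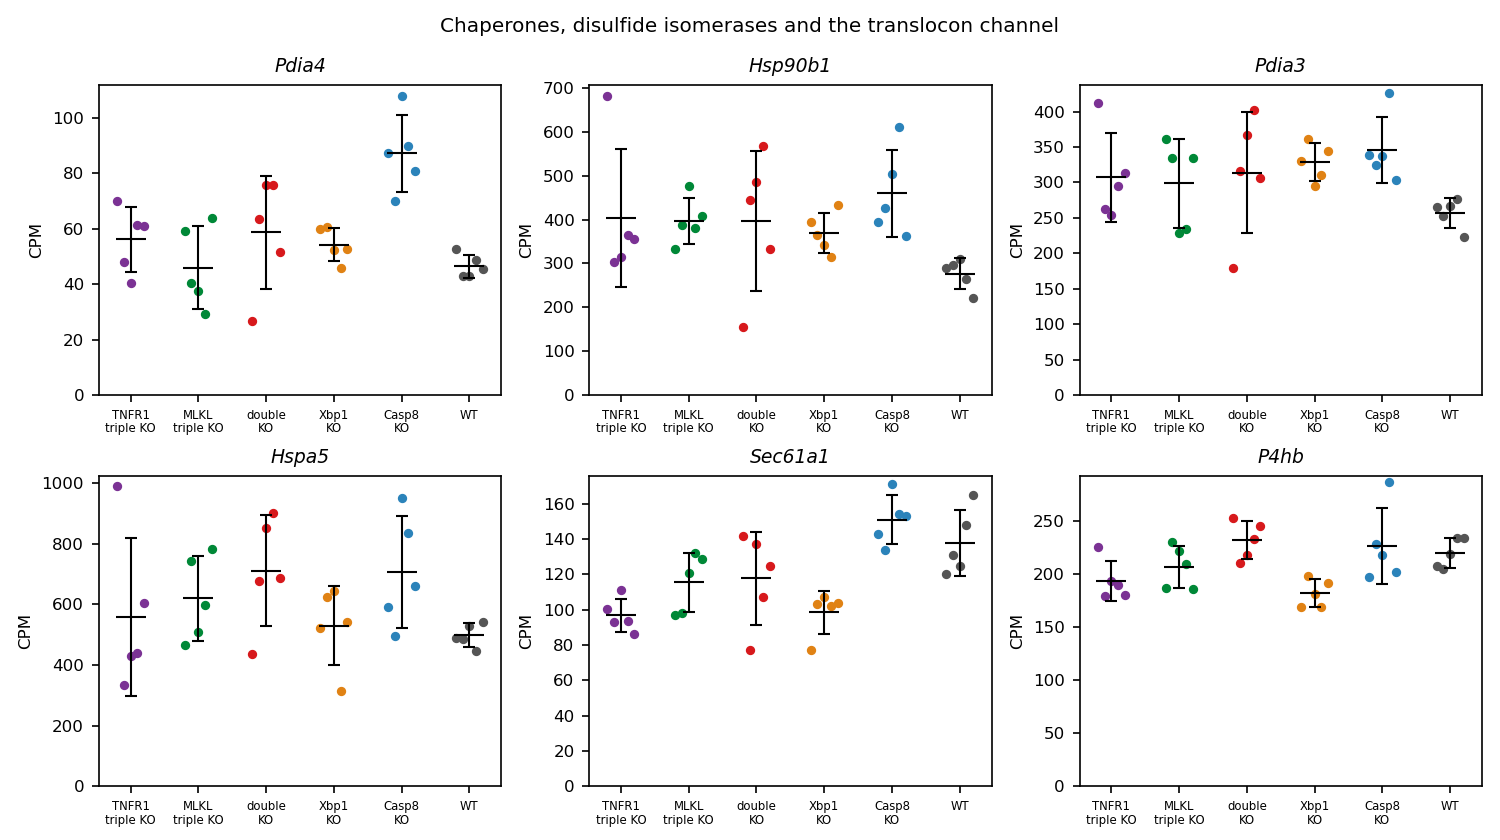
CPM per mouse (points) of the isomerases Pdia4, Pdia3 and P4hb, the chaperones Hsp90b1 and Hspa5 and the channel Sec61a1, with mean and SD (bars) per genotype, 5 mice each. Casp8 knockout mice are above all WT mice for Pdia4, Hsp90b1 and Pdia3, and Xbp1 knockout mice are below all WT mice for Sec61a1 and P4hb.

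Set against the single knockouts, with which it shares a deletion each, the double knockout was higher for Edem1 and Herpud1 in both comparisons. Against the Xbp1 knockout 3 of 35 genes rose (8.57%) and 0 fell, where 8.64% of all genes were called and 4.77% were higher. Edem1 differed by 0.60 ± 0.14 (adjusted p = 0.00739), Herpud1 by 0.55 ± 0.15 (0.0231) and P4hb by 0.35 ± 0.09 (0.0179). P4hb (ENSMUSG00000025130, chromosome 11, 120560298 to 120573253), the classical protein disulfide isomerase, stood at 252, 209.7, 218, 233 and 245 CPM in double knockouts, against 169, 198, 181, 169 and 191 in Xbp1 knockouts. These groups did not overlap for P4hb or Edem1, where 6.18% of all genes did not and 3.22% were higher. P4hb held 225, 179, 193, 189 and 180.1 CPM in TNFR1 triple knockouts, 187, 229.9, 221, 209 and 186 in MLKL triple knockouts, 197, 228, 218, 286 and 202 in Casp8 knockouts and 207, 204, 219, 234 and 234 in WT. The P4hb call ended without Xbp1 knockout replicate 1 (0.0512) or 4 (0.0568) or double knockout replicate 1 (0.0561), and that of Herpud1 without Xbp1 knockout replicate 4 (0.066) or 5 (0.0612) or double knockout replicate 1 (0.135) or 5 (0.0504). The count was 1 without Xbp1 knockout replicate 4 or double knockout replicate 1, where 4.78% and 5.17% of all genes were called. Edem1 held in all 10 fits that left out 1 library. Herpud1 also ended without the 3 libraries that stood apart (0.0853). With sex as a term 5 genes were higher, Calr (0.0259) and Manf (0.0355) being added, where 9.19% of all genes were called. Plasma cell markers were higher for 8 of 12, and their part was not tested.

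Against the Casp8 knockout 3 of the 35 genes rose and 2 fell, where 18.4% of all genes were called, 9.68% higher and 8.71% lower. The share of members was below that of all genes. Ssr4 (0.47 ± 0.09, adjusted p = 0.000951), Edem1 (0.62 ± 0.14, 0.00272) and Herpud1 (0.79 ± 0.15, 0.000843) were higher, and these 3 held in all fits that left out 1 library. Ssr4 and Herpud1 did not overlap between the groups, where 8.67% of all genes did not and 4.35% were higher. Sec61a1 was lower, by a log2 fold change of −0.36 ± 0.13 (adjusted p = 0.0493), with 142, 77.5, 137, 107 and 125 CPM in double knockouts, against 143, 134, 171, 154 and 153 in Casp8 knockouts. Pdia4 was lower too (−0.58 ± 0.20, 0.0441). Both calls were narrow: that of Sec61a1 ended without Casp8 knockout replicate 1, 3, 4 or 5 or double knockout replicate 2, 4 or 5 (0.0608 to 0.136), and that of Pdia4 without Casp8 knockout replicate 1, 3, 4 or 5 or double knockout replicate 1 or 5 (0.0576 to 0.136). Without the 3 libraries that stood apart Pdia4 did not pass (−0.39, 0.118). With sex as a term both ended (0.0814 and 0.0998) and Manf passed (0.65, 0.0255). The count was 3 without Casp8 knockout replicate 1, 3 or 5 or double knockout replicate 5, where 13.1% to 16.2% of all genes were called. It was 8 without double knockout replicate 3, where 20% of all genes were called. Plasma cell markers were higher for 7 of 12, and their part was not tested.

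The interaction asks whether the difference of the double from the Xbp1 knockout was unlike that of the Casp8 knockout from WT. By edgeR it called 0 of the 35 genes, where 1.38% of all genes were called. An unadjusted p under 0.05 was found for 10 of the 35, where 18.2% of all genes had one. DESeq2 called 1 of the 35, Edem2, where it called 475 of 13653 genes (3.48%). Edem2 (ENSMUSG00000038312, chromosome 2, 155701677 to 155729475) had an interaction of −0.74 ± 0.20 (edgeR adjusted p = 0.0569) and passed without WT replicate 3 (adjusted p = 0.0499). The other large values were −0.95 ± 0.48 for Hyou1 (0.293), −0.80 ± 0.29 for Pdia4 (0.135), −0.63 ± 0.32 for Hsp90b1 (0.286), 0.58 ± 0.22 for Herpud1 (0.15) and 0.56 ± 0.20 for Edem1 (0.133). Herpud1 and Edem1 were thus positive, and Edem2 and the 3 chaperones or isomerases negative, none past the threshold by edgeR.

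Mice that lacked TNFR1 or MLKL in addition were compared with the double knockout, and both comparisons share its 5 libraries. In TNFR1 triple knockouts 1 of 35 genes fell and 0 rose, where 2.35% of all genes were called and 1.33% were lower. This was Herpud1, at 145 ± 25 CPM in TNFR1 triple knockouts and 214 ± 68.6 in double knockouts (log2 fold change −0.56 ± 0.15, adjusted p = 0.0457). The call ended without TNFR1 triple knockout replicate 2 (0.156), 3 (0.0507), 4 (0.105) or 5 (0.0912) or double knockout replicate 1 (0.219), 4 (0.0872) or 5 (0.0974), which leaves a count of 0. It also ended with sex as a term (0.0992) and without the 3 libraries that stood apart (0.208). The share of all genes called was lower in these fits too. It was 0.402% to 1.07% without those single libraries, 1.71% with sex as a term and 0.641% without the 3 libraries. Of the 35 genes 30 had a negative log2 fold change, with a median of −0.12 beside 0 over all genes tested. Ssr2 was the one gene that did not overlap, lower in TNFR1 triple knockouts, where 2.28% of all genes did not and 1.22% were lower. The library labelled TNFR1 triple knockout replicate 1 set the upper end of its group for many chaperones. Without it 5 genes fell, namely Herpud1, Calr (adjusted p = 0.0412), P4hb (0.0449), Manf (0.0318) and Edem1 (0.0235). The share of all genes called rose as well in that fit, from 2.35% to 5.94%. Without double knockout replicate 2 the count was 3, with Sec61a1 (0.0493) and Ssr4 (0.0305), where 4.68% of all genes were called. Mzb1 was the 1 plasma cell marker of 12 that was lower, and the part of plasma cells was not tested. On chromosome 6 Edem1 and Sec61a1 lie 16.5 and 36.8 Mb from Tnfrsf1a, and the part of this position was not tested.

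In MLKL triple knockouts 2 of the 35 genes fell against the double knockout (5.71%) and 0 rose, where 7.65% of all genes were called and 4.21% were lower. Herpud1 had a log2 fold change of −0.77 ± 0.15 (adjusted p = 0.00216), with 126 ± 13.8 CPM in MLKL triple knockouts, against 214 ± 68.6 in double knockouts. Ssr4 had −0.37 ± 0.09 (adjusted p = 0.0128). Neither gene overlapped between these groups, where 5.01% of all genes did not and 2.37% were lower. The Herpud1 call held in all 10 fits that left out 1 library. That of Ssr4 ended without MLKL triple knockout replicate 3 (0.0519), which leaves 1 call, where 5.09% of all genes were called. Without the 3 libraries that stood apart 4 genes fell, where 7% of all genes were called. These were Pdia4 (−0.69, adjusted p = 0.0162) and Dnajc3 (−0.36, 0.0493), beside Herpud1 (0.0207) and Ssr4 (0.0322). With sex as a term 3 fell, Calr being the added gene (−0.56, 0.0333), where 5.67% of all genes were called. Plasma cell markers were lower for 7 of 12, and their part was not tested. On chromosome 8 Herpud1 and Calr lie 16.9 and 26.5 Mb from Mlkl, and the part of this position was not tested.

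Against WT, with which both were also compared, the TNFR1 triple knockout had 2 genes higher and 1 lower, where 2.12% of all genes were called, 1.16% higher and 0.957% lower. Edem2 was 0.57 ± 0.14 (adjusted p = 0.0307) and Derl2 0.43 ± 0.11 (0.039), while Sec61a1 was −0.51 ± 0.13 (0.0326). Sec61a1 stood at 100.4, 92.9, 111, 93.6 and 86 CPM in TNFR1 triple knockouts and at 97.1, 98.2, 121, 132 and 129 in MLKL triple knockouts, against 120.2 to 165 in WT. The first of these did not overlap WT, where 4.77% of all genes did not and 2.43% were lower. With sex as a term none of the 3 passed (Edem2 0.144, Derl2 0.249, Sec61a1 0.0766), and 4 of the 5 TNFR1 triple knockout mice and 1 of the 5 WT mice were female. The fit with sex called 0.479% of all genes. Without the library labelled TNFR1 triple knockout replicate 1 the count was 0 (Edem2 0.124, Derl2 0.144, Sec61a1 0.0809), where 0.491% of all genes were called. It was also 0 without WT replicate 2, 4 or 5, and 1 without TNFR1 triple knockout replicate 2, 4 or 5 or WT replicate 1. There 0.825% to 2.41% of all genes were called. Plasma cell markers were higher for 5 of 12, and their part was not tested.

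The MLKL triple knockout had 0 of 35 genes called against WT by edgeR, where 0.854% of all genes were called. An unadjusted p under 0.05 was found for 9 of the 35, where 15.4% of all genes had one. DESeq2 called 2 of the 35, Dnajb11 and Derl2, where it called 279 of 11857 genes (2.35%). Hsp90b1, Dnajb11 and Derl2 did not overlap WT and were higher, where 4.48% of all genes did not overlap and 1.98% were higher. Derl2 had the lowest p, with 49.3 to 64.3 CPM in MLKL triple knockouts, against 34.6 to 49 in WT (log2 fold change 0.42 ± 0.11, adjusted p = 0.0678). A single gene passed without MLKL triple knockout replicate 1 (Dnajb11, 0.0464), without WT replicate 3 (Derl2, 0.0416) and without the 3 libraries that stood apart (Derl2, 0.0444). In these fits 0.625%, 0.677% and 1.11% of all genes were called. All 5 MLKL triple knockout mice and 1 of the 5 WT mice were female. With sex as a term the count was again 0, where 0.0712% of all genes were called. Between the TNFR1 and the MLKL triple knockout 0 of 35 genes were called by edgeR and 0 by DESeq2, where 0.259% of all genes were called, and 4 of the 35 had an unadjusted p under 0.05, where 8.55% of all genes did.

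Other genes of the same pathway were read as a list of 81 chosen by role, of which 80 passed the filter. In double knockouts 18 of them were higher than in WT and 3 lower (22.5% and 3.75%), where 11.1% of all genes were higher and 10.2% lower, with a median log2 fold change of 0.16 beside 0.01 over all genes tested. Derl3, a relative of Derl1 and Derl2, had the largest difference, at 8.17, 1.53, 8.37, 11.1 and 5.47 CPM in double knockouts and 0.88, 1.19, 0.69, 0.233 and 1.04 in WT. At such levels a library held few reads of it, but all double knockout mice were above all WT mice (3.08 ± 0.53, adjusted p = 0.000138). Ero1l, which passes oxidising power to the disulfide isomerases, stood at 23 to 38 CPM in double knockouts, against 14 to 18.2 in WT (0.93 ± 0.18, 0.000537). Sar1b, the GTPase that starts COPII coats, rose by 0.60 ± 0.12 (0.00076) and Cope, a subunit of the COPI coat of vesicles that return to the ER, by 0.50 ± 0.11 (0.00148). The 3 that fell were Qsox1, a sulfhydryl oxidase (−0.70 ± 0.12, 0.000143), Magt1, a subunit of the oligosaccharyltransferase (−0.47 ± 0.10, 0.00084), and Fkbp14, a prolyl isomerase (−1.08 ± 0.23, 0.000923). Fkbp14 stood at 3.32 to 4.58 CPM in double knockouts, against 5.69 to 11.4 in WT, without overlap.

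Across the other comparisons this list had 1 gene higher and 2 lower in TNFR1 triple knockouts against the double knockout (1.25% and 2.5%), where 1.02% of all genes were higher and 1.33% lower. It had 2 higher and 6 lower in MLKL triple knockouts against it (2.5% and 7.5%), where 3.44% of all genes were higher and 4.21% lower. Ero1l and Sar1b were lower and Fkbp14 was higher in both triple knockouts, which share the double knockout libraries. Derl3 was lower in MLKL triple knockouts (−2.11 ± 0.48, adjusted p = 0.00573) and had −0.90 ± 0.43 in TNFR1 triple knockouts (0.255). Against WT 1 was higher and 1 lower in TNFR1 triple knockouts, where 1.16% of all genes were higher and 0.957% lower. In MLKL triple knockouts 1 was higher and 0 lower, where 0.343% of all genes were higher and 0.511% lower. The Xbp1 knockout had 0 in either direction by edgeR, where 0.0841% of all genes were called. The Casp8 knockout had 1, where 1.17% of all genes were called. This was Uggt1, the sensor that sends misfolded glycoproteins back for folding (136 to 162 CPM in Casp8 knockouts, against 96.8 to 124 in WT). Uggt1 also had a negative interaction (−0.49 ± 0.13, adjusted p = 0.0493). It was one of 3 genes of this list that passed there, with Stt3b and Sec23b positive, where 1.38% of all genes were called.

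Of the 7 genes with an ER stress response element in the promoter, 1 (Calr) was higher in double knockouts and 1 (Calr) in Casp8 knockouts. Their log2 fold changes were −0.05 to 0.52 in double knockouts, with a median of 0.28, and 0.18 to 0.73 in Casp8 knockouts, with a median of 0.31 and all 7 above 0. Both genes with the element II rose in double knockouts, Dnajb11 by 0.47 and Herpud1 by 0.75, and had log2 fold changes of 0.23 and −0.03 in Casp8 knockouts, neither past the threshold. Of the 16 genes searched without any match 3 rose in double knockouts, Ssr4, Sdf2l1 and Edem1. With so few genes per element these counts are a description.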

How the data were processed

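Per the labels, RNA of the colon of 30 mice was made into 3′ tag libraries (Lexogen QuantSeq forward kit). The authors deposited estimated counts per gene, 11.2% of whose non-zero values were not whole. The submitters' processing notes name GRCm38 as the build and list the tools featureCounts 2.01, Subread, cutadapt 3.2 and R 4.0.0 without their roles. The strand setting is not given in the sources used here, so a gene and an antisense partner cannot be told apart. Counts were rounded to whole numbers, which moved no library total by over 0.00321%, and 92 spike-in rows held 0 reads. Library totals of 3516792.6 to 5823059.7 reads make 1 read about 0.232 CPM.

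Genes were filtered with filterByExpr, scaled by TMM and tested with the quasi-likelihood F test of edgeR 4.0.16 (R 4.3.3) with 1 coefficient per genotype over all 30 libraries. P-values were adjusted by Benjamini-Hochberg over 15458 genes, and adjusted p under 0.05 counted as called. Standard errors are the log2 fold change over the square root of F. The interaction is double minus Xbp1 knockout minus Casp8 knockout plus WT. Alternatives were DESeq2 1.42.0, its size factors, no filter, the replicate number as a block, sex as a term, the compared groups alone, 3 libraries left out, and each library left out in turn. The members, lists and tests were chosen with earlier results of these data known. Values of all libraries are given for the 2 genes of smallest p in each role in the double knockout against WT and the 2 of smallest p in each other comparison with a call, and further genes by role. Promoters came from RefSeq on GRCm38.p6.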

Additional observations from a re-analysis of the deposited data

Results flagged for a closer look

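Of 210 combinations of a gene and a genotype, 21 held 1 library whose gap to the nearest of the other 4, divided by the range of the group, passed Dixon's critical value for 5 samples. Chance flags about 1 in 20 groups, and genes of 1 library are not independent. The library labelled TNFR1 triple knockout replicate 1 accounted for 7 of the 21, and was the highest of its group each time. Hsp90b1 stood at 682 CPM in it, with the nearest other TNFR1 triple knockout mouse at 364, and Calr stood at 575 CPM in it, with the nearest other TNFR1 triple knockout mouse at 366. Pdia6 stood at 191 CPM in it, with the nearest other TNFR1 triple knockout mouse at 127, and Dnajc3 stood at 219 CPM in it, with the nearest other TNFR1 triple knockout mouse at 174. Sdf2l1 stood at 45.7 CPM in it, with the nearest other TNFR1 triple knockout mouse at 23.3, and Manf stood at 164 CPM in it, with the nearest other TNFR1 triple knockout mouse at 89.6. Edem1 stood at 73.2 CPM in it, with the nearest other TNFR1 triple knockout mouse at 48.8. Its plasma cell marker sum, 9843 CPM, was also the highest of its genotype. Its Tnfrsf1a tags stood at 75.4 CPM, against 52.4 to 61.5 in the other 4. Groups without a TNFR1 deletion overlap those 4, so the tags do not settle its label. The part of plasma cells was not tested.

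In MLKL triple knockouts, Ssr1 was highest at 164 CPM in replicate 2 (nearest other 148), and Pdia6 was lowest at 138 CPM in replicate 1 (nearest other 166). There too, Dnajb9 was highest at 33.6 CPM in replicate 3 (nearest other 22.7), and Edem2 was lowest at 16.7 CPM in replicate 5 (nearest other 24.4). There too, Sec31a was highest at 188 CPM in replicate 3 (nearest other 153). In double knockouts, Creld2 was highest at 24.7 CPM in replicate 4 (nearest other 18.4). In Xbp1 knockouts, Sec61a1 was lowest at 77 CPM in replicate 1 (nearest other 102), and Calr was highest at 491 CPM in replicate 5 (nearest other 369.6). There too, Manf was lowest at 58.9 CPM in replicate 4 (nearest other 91.1), and Sec31a was lowest at 121 CPM in replicate 3 (nearest other 141). In Casp8 knockouts, Dnajc3 was highest at 241 CPM in replicate 3 (nearest other 207), and Sdf2l1 was highest at 34.1 CPM in replicate 4 (nearest other 21.1). In WT, Ssr3 was lowest at 88.4 CPM in replicate 5 (nearest other 113), and Sdf2l1 was highest at 21.3 CPM in replicate 5 (nearest other 18.4).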

How the results depend on the processing

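Counts of called genes among the 35 moved by over 1.5 times in these cases. DESeq2 called 2 in Xbp1 knockouts, 5 in Casp8 knockouts and 2 in MLKL triple knockouts against WT, 2 in TNFR1 triple knockouts against the double knockout, and 1 in the interaction. Of all genes to which it gave an adjusted p it called 1.4%, 2.3%, 2.35%, 3.74% and 3.48%, in that order. Fitting the compared groups alone gave 3, 6, 2 and 1 for the Xbp1, Casp8, MLKL triple and TNFR1 triple knockouts against WT, 3 for the double against the Casp8 knockout, and 0 and 1 for the TNFR1 and MLKL triple knockouts against the double knockout. These fits called 1.57%, 3.09%, 2.16%, 2.15%, 11.2%, 0.147% and 3.47% of all genes, in that order. Sex as a term gave 0 for the Casp8 and 0 for the TNFR1 triple knockout against WT, 5 for the double against the Xbp1 knockout, and 0 for the TNFR1 triple against the double knockout. The share of all genes called with that term was 0.653%, 0.479%, 9.19% and 1.71%, in that order. Without the 3 libraries that stood apart 5 and 1 were called for the Casp8 and MLKL triple knockouts against WT, where 2.32% and 1.11% of all genes were called. Against the double knockout 0 and 4 were then called for the TNFR1 and MLKL triple knockouts, where 0.641% and 7% of all genes were called. The count of the double knockout against WT went from 8 to 12 in that fit, where 19.8% of all genes were called, which is not over 1.5 times. The replicate block gave 1 for the Casp8 knockout against WT, where 0.996% of all genes were called. No low-count filter and DESeq2 size factors kept every count within 1.5 times. The cause of these moves was not tested.

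With 1 library left out in turn, counts against WT ranged from 0 to 0 in Xbp1 knockouts, 0 to 3 in Casp8 knockouts, 5 to 12 in double knockouts, 0 to 3 in TNFR1 triple knockouts and 0 to 1 in MLKL triple knockouts. The share of all genes called ranged from 0.0128% to 0.0895%, 0.562% to 1.2%, 16.5% to 21.6%, 0.491% to 3.24% and 0.0575% to 0.836%, in that order. Counts ranged from 1 to 4 for the double against the Xbp1 knockout, 3 to 8 against the Casp8 knockout, 0 to 5 and 1 to 3 for the TNFR1 and MLKL triple against the double knockout, 0 to 0 between the triple knockouts and 0 to 1 for the interaction. There the share of all genes ranged from 4.78% to 10.7%, 12.8% to 20.7%, 0.402% to 5.94%, 4.6% to 8.51%, 0.128% to 0.345% and 0.262% to 2.97%, in that order. The 24 called log2 fold changes of single genes gave 408 values under the alternatives, of which 311 stayed past the threshold, 97 did not, and 0 turned their sign. The 361 that were not called gave 6487 values, of which 66 passed.

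The replicate number does not pair the mice: over 75 same-numbered pairs of different genotypes the correlation of deviations in the 1000 most variable genes had a median of 0.02 (−0.4 to 0.53), against −0.02 for other pairs, and 7 of 30 libraries correlated best with their own number. With the replicate block the count was 1 for the Casp8 knockout (Calr lost, adjusted p = 0.067) and 7 for the double knockout against WT (Sdf2l1 lost, 0.0568), 4 for the double against the Casp8 knockout (Pdia4 lost, 0.0655), and as without it in the other comparisons. For the named comparisons the block fit called 0.996%, 20.3% and 17.2% of all genes, in that order. Depth limits the low genes: 1 read is about 0.232 CPM, so that Derl3 in WT rests on a few reads per library.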
